A study of Homo sapiens with 3 samples.

Results

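The genes described here are 10 components and partners of human telomerase and of shelterin, the protein complex that caps chromosome ends: TERT, TERC, DKC1, TERF1, TERF2, TERF2IP, POT1, ACD, TINF2 and RTEL1. They were taken by name, by matching the Ensembl identifiers of the deposited tables to GENCODE symbols, and all 10 were found among 58051 listed genes. The study took maps of replication origins from earlier work and mapped DNA breaks in the H9 line. It used gene expression in that line to sort promoters and splice sites by transcription. H9 is a long-established line of human embryonic stem cells. The 3 libraries, 1 per replicate, came from wild-type cells that received no treatment and grew without feeder cells in Essential 8 Flex medium on vitronectin, and ribosomal RNA was removed from their total RNA. There is 1 condition, so the error given with a level is the spread between the 3 replicates. It leaves out the choice of gene length, and nothing in the labels says whether the replicates were separate cultures.

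The libraries held between 8655155 and 12024802 reads on genes, of which 7385 to 10108 lay on the 10 members. Levels are given in TPM, the length-scaled abundance of transcripts: the reads of a gene divided by the length of all its exons and scaled to the same sum in each library. In bulk RNA, fewer cells that express a gene and less RNA per cell cannot be told apart. The stem cell label was checked with 6 pluripotency markers, and POU5F1, SOX2, NANOG, LIN28A, DNMT3B and TDGF1 had means from 275 to 2576 TPM. Of 8 markers of other cell types, PAX6, TBXT, SOX17 and GATA4 were between 0.961 and 1.75 TPM, MIXL1 and COL1A1 were at 22.3 and 14.6 TPM, and NES and THY1 at 327 and 145 TPM. THY1 is also a surface marker of pluripotent stem cells. The part of the other cell type markers in the levels of the members was not tested.

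Telomeres are repeats of TTAGGG that shorten at each round of replication. Telomerase restores them: its catalytic subunit, encoded by TERT, copies a short template within the RNA TERC, and dyskerin, encoded by DKC1, binds and stabilizes that RNA. Shelterin covers the repeats. TRF1 and TRF2, from TERF1 and TERF2, bind the double-stranded repeat, RAP1 from TERF2IP rides on TRF2, and POT1 holds the single-stranded end. TPP1, from ACD, joins POT1 to TIN2, from TINF2, which ties the complex together, and TPP1 also recruits telomerase. RTEL1 is a helicase that unwinds loops and other structures at telomeres. Most somatic cells keep TERT silent, whereas embryonic stem cells maintain telomerase and can divide without limit.

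The template of telomerase lies near the 5′ end of TERC, and that stretch of the gene is shown because TERC was the member whose reads said least about its level. It was read from GRCh38, on the minus strand, at chr3:169764941-169765060. The capitals mark the longest run that is complementary to the telomere repeat, 11 bases at positions 46 to 56 of the gene, found by comparing the gene with the reverse complement of TTAGGG repeats.
TERC: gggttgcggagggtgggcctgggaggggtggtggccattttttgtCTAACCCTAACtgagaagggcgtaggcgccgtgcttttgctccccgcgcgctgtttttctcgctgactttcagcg

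Of the 9 protein-coding members, 3 were in the high, 5 in the medium and 1 in the low class of the study, as computed here. In that scheme genes below 0.01 TPM are nonexpressed and the others are divided into 3 quantiles, which fell at 3.35 and 27.0 TPM over 19629 protein-coding genes. The count in the high class was 7 with quantiles over genes of every biotype, which the study's scheme does not exclude, and 2 with genes under 1 TPM taken as nonexpressed. The median of the 9 was 19.7 TPM, against 7.10 TPM for all protein-coding genes. By mean TPM the order was TERF1, DKC1, TERF2, ACD, TINF2, TERF2IP, POT1, TERT, RTEL1 and TERC. Neighbours in this order were separate in all 3 replicates for 8 of 9 pairs, and the ranges of TERF2IP and POT1 overlapped. Even there TERF2IP was above POT1 within each replicate, by a ratio of 1.17 ± 0.0177 (SD, n = 3). The last place of TERC rests on 2 reads in all. Over its whole length, its count of 0 in replicate 3 allows up to 2.50 TPM, against 2.16 TPM for RTEL1 in that replicate. The limit would be higher if reads in the 438 bp shared on its strand were not counted. The ranges of RTEL1 and TERC overlapped when reads were divided by bases unshared on the same strand. With 3 replicates of 1 condition the order is a description, and no test was made of it.

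**Figure D1:**
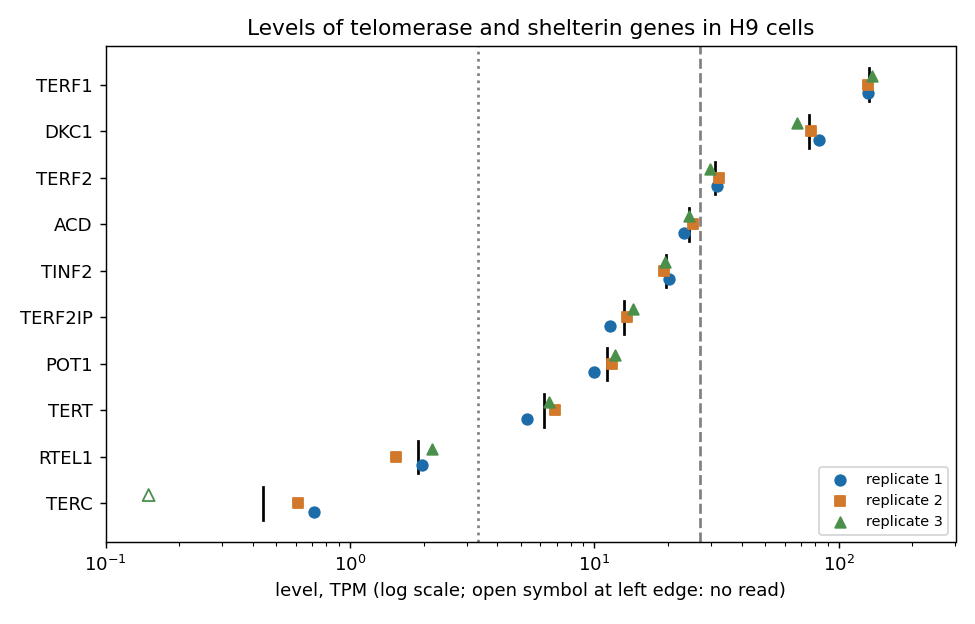
Level of each member in TPM on a log axis, 1 symbol per replicate, with a black bar at the mean of 3 replicates. The dotted and dashed lines are the limits of the medium and high classes at 3.35 and 27.0 TPM, and the open symbol at the left edge is the replicate in which TERC had no read. TERF1 stands at 131 to 137 TPM, above every other member in each replicate.

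The catalytic subunit gene TERT (ENSG00000164362, chromosome 5, 1253147 to 1295068, minus strand) had 82, 123 and 86 reads in replicates 1, 2 and 3. These correspond to 5.32, 6.87 and 6.55 TPM, with a mean of 6.24 ± 0.815 TPM (SD, n = 3). Replicate 1 was lowest and the others were close to each other. TERT lay above 48.4% of protein-coding genes, near the middle of their distribution. Its 291 reads in all have a 95% exact Poisson interval of 259 to 326, which covers counting error only, since copies made by PCR are not independent molecules.

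DKC1 (ENSG00000130826, chromosome X, 154762742 to 154777689, plus strand), whose product dyskerin also carries out the pseudouridylation of ribosomal RNA, had 1981, 2148 and 1370 reads, or 82.7, 77.2 and 67.1 TPM. The mean was 75.7 ± 7.92 TPM (SD, n = 3), above 88.5% of protein-coding genes, and replicate 3 was lowest. Within replicates DKC1 was 15.5, 11.2 and 10.3 times as high as TERT, a mean ratio of 12.3 ± 2.82 (SD, n = 3). The ratio was 19.9 ± 4.53 with the longest transcript as gene length. The snoRNA genes SNORA36A and SNORA56 lie within annotated exons of DKC1 and had no read in any replicate.

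TERC (ENSG00000270141, chromosome 3, 169764520 to 169765060, minus strand) had 1, 1 and 0 reads, or 0.710, 0.611 and 0 TPM. Of its 541 bp, 438 bp are also annotated as a second gene on the same strand, Telomerase-vert (ENSG00000277925), which the deposited tables list with no read in any replicate. Reads that fall in the shared stretch can belong to either gene, and how the counter treated them is not given in the sources used here. Over the whole table, 1917 genes overlapped a neighbour of the same strand along 80% or more of their exons, and 65.5% of them had no read in the 3 replicates, against 40.7% of 52410 genes that overlapped one along under 10%. A count of 0, as in replicate 3, allows up to 3 reads, which is 2.50 TPM over the whole gene. It would be more if reads in the shared stretch were not counted. The part of the shared annotation in the low count was not tested. RMRP, RPPH1 and RN7SK, other abundant RNAs without a poly(A) tail, likewise had no read under the identifiers matched to these symbols. RPPH1 and RN7SK share 100% of their length with another gene of the same strand, and RMRP shares none in the release used here.

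From the highest to the lowest, the genes of shelterin spanned an order of magnitude. TERF1 stood apart, and the other subunits had means between 11.3 and 31.2 TPM. TERF1 (ENSG00000147601, chromosome 8, 73008856 to 73048123) had 5363, 6251 and 4779 reads, or 131, 132 and 137 TPM. Its mean of 133 ± 3.32 TPM (SD, n = 3) was above 94.3% of protein-coding genes, and TERF1 gave 57.2 ± 0.840% of the summed TPM of the 6 subunits (SD, n = 3). The counting could have moved reads between TERF1 and its 7 annotated processed pseudogenes, TERF1P1 to TERF1P7, which together had 11 reads over the 3 replicates against 16393 for TERF1. Its paralog TERF2 (ENSG00000132604, chromosome 16, 69355567 to 69408571) had 466, 551 and 370 reads, or 31.8, 32.3 and 29.6 TPM, a mean of 31.2 ± 1.44 TPM (SD, n = 3). TERF1 was 4.13, 4.07 and 4.63 times as high as TERF2 in the 3 replicates, a mean ratio of 4.28 ± 0.310, and 8.42 ± 0.610 by the longest transcript (SD, n = 3).

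ACD (ENSG00000102977, chromosome 16, 67657512 to 67660810), the gene of the subunit that recruits telomerase, had 195, 247 and 174 reads. Its levels were 23.3, 25.4 and 24.4 TPM, a mean of 24.3 ± 1.04 TPM (SD, n = 3). TINF2 (ENSG00000092330, chromosome 14, 24238286 to 24242663) had 231, 255 and 189 reads, or 20.3, 19.2 and 19.5 TPM, a mean of 19.7 ± 0.541 TPM (SD, n = 3). ACD was above TINF2 in each replicate, by a ratio of 1.24 ± 0.0854 (SD, n = 3), and both stayed within the medium class in all of them. The order turned when the same reads, with none removed, were divided by only the exon bases that no gene of either strand shares. The means were then 12.0 TPM for ACD and 13.2 TPM for TINF2.

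TERF2IP (ENSG00000166848, chromosome 16, 75647773 to 75761872) had 133, 181 and 141 reads, or 11.6, 13.5 and 14.4 TPM, a mean of 13.1 ± 1.44 TPM (SD, n = 3). It was thus lower than TERF2, the gene of its binding partner, which was 2.40 ± 0.345 times as high (SD, n = 3). POT1 (ENSG00000128513, chromosome 7, 124822386 to 124929983) had 225, 311 and 235 reads, or 9.92, 11.8 and 12.1 TPM, a mean of 11.3 ± 1.20 TPM (SD, n = 3). Over all exons POT1 was the lowest shelterin gene in every replicate, whereas TINF2 had the lowest mean by the longest transcript and TERF2IP by reads with no division by length. Replicate 1 was lowest for both POT1 and TERF2IP. TERF1 was 13.2, 11.2 and 11.3 times as high as POT1, a mean ratio of 11.9 ± 1.16 (SD, n = 3). ACD was 2.17 ± 0.172 times as high as POT1 (SD, n = 3), the gene of its partner at the single-stranded end, and 1.24 ± 0.0982 times as high by the longest transcript.

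RTEL1 (ENSG00000258366, chromosome 20, 63657810 to 63696253, plus strand) had 44, 40 and 41 reads, or 1.98, 1.55 and 2.16 TPM. Its mean of 1.90 ± 0.316 TPM (SD, n = 3) was in the low class, above 37.4% of protein-coding genes. Of its 8542 bp of exons, 4522 bp are shared with RTEL1-TNFRSF6B, a read-through gene of the same strand, to which 21, 32 and 27 reads were assigned. Dividing by the 4020 bp of RTEL1 that no gene of its strand shares gave 31.1 reads per kb over the 3 replicates, and the 3431 bp that the read-through gene has to itself gave 23.3 reads per kb. TERT was 3.38 ± 0.927 times as high as RTEL1 over all exons (SD, n = 3). With all reads of each gene divided by only its unshared bases, TERT was 1.59 ± 0.436 times as high (SD, n = 3). TERT was the higher of the pair in each replicate by either length. RTEL1P1, an annotated pseudogene, had 2 reads in all.

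**Figure D2:**
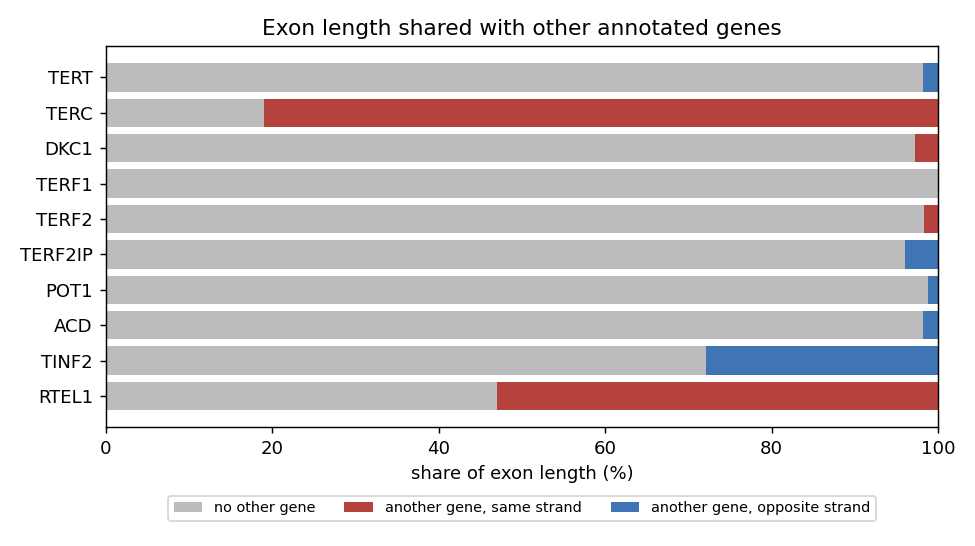
Share of each member's exon length, in percent, that no other annotated gene covers (grey), that a gene of the same strand covers (red) and that a gene of the opposite strand covers (blue). TERC and RTEL1 share 81.0% and 52.9% with genes of their own strand, TINF2 shares 27.9% with genes of the opposite strand, and TERF1 shares none.

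Exons of 4 members were shared with a gene of the same strand and those of 5 with a gene of the opposite strand, and TERF1 was free of both. Without strand information, reads from a gene and from its antisense partner cannot be told apart. TINF2 was the most exposed protein-coding member on the opposite strand, with 957 bp shared with GMPR2, a guanosine monophosphate reductase gene. GMPR2 had 567 reads per kb of exon over the 3 replicates and TINF2 had 154. TERF2IP shares 176 bp with KARS1, the lysyl-tRNA synthetase gene, which had 1795 reads per kb against 103 for TERF2IP. POT1-AS1, which shares 111 bp with POT1, had 3.43 reads per kb against 88.4 for POT1, and CARMIL2 had 43.7 against 191 for ACD, with 58 bp shared. TERT shares 106 bp with an antisense lncRNA (ENSG00000287486) that was not used here, and TERF2 shares 98 bp with ENSG00000260371, a gene of its own strand without a read. The part of these neighbours in the counts of the members was not tested.

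The length by which reads are divided mattered more for the levels than did the spread between replicates. The union of the exons of TERF1 is 15706 bp, which is 3.70 times the length of its longest transcript. That ratio was between 1.12, for TERT, and 2.21, for POT1, in the other protein-coding members. With the longest transcript as length, TERF1 had 371 ± 10.5 TPM (SD, n = 3) and remained the highest member. ACD, TERF2IP, POT1 and TINF2 then followed TERF2 at 23.1 ± 1.00, 20.5 ± 2.31, 18.7 ± 2.03 and 18.1 ± 0.473 TPM (SD, n = 3), and the ranges of neighbours among these 4 overlapped. The order of these 4 subunits is thus not settled by the counts, while the places of TERF1, DKC1, TERF2, TERT and RTEL1 were the same by both lengths.

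**Figure D3:**
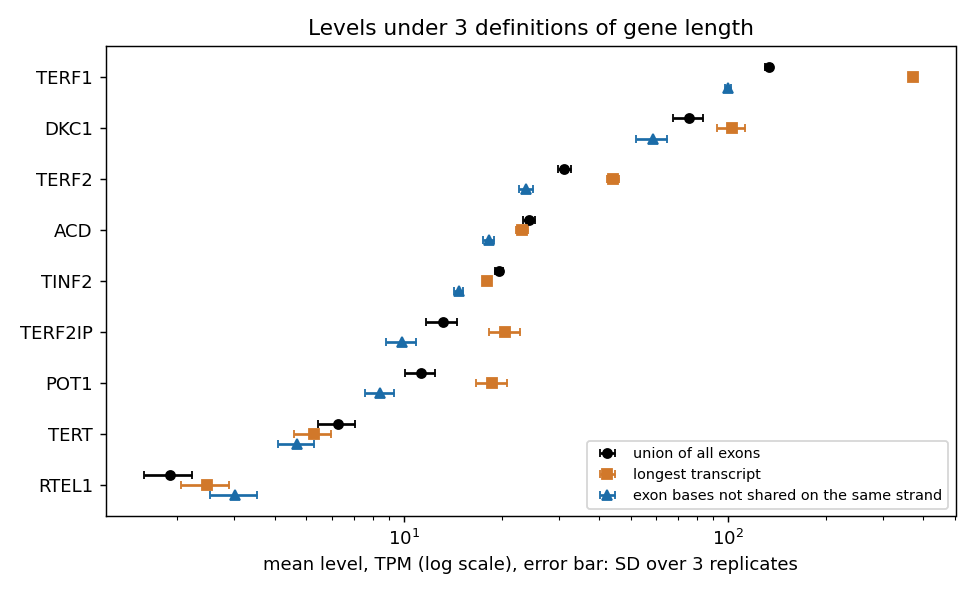
Mean level of the 9 protein-coding members in TPM on a log axis, with error bars of 1 SD over 3 replicates, for 3 definitions of gene length. Levels by the longest transcript (orange) bring ACD, TERF2IP, POT1 and TINF2 between 18.1 and 23.1 TPM. For unshared exon bases (blue), all reads of a gene are divided by its length not shared on the same strand. RTEL1 is then at 3.02 TPM, closer to TERT at 4.68 TPM, whose own length does not change but whose TPM is rescaled.

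Whether the members varied between the libraries beyond the sampling of reads was examined with a chi-square test of each gene's 3 counts against the library totals. It compares libraries of 1 condition, with Benjamini-Hochberg adjustment over 18451 genes that had at least 20 reads, and 10.9% of these genes passed at an adjusted p of 0.05. Of the 9 members with enough reads, DKC1 (adjusted p = 2.81e-05) and TERF1 (adjusted p = 0.0135) passed. These are also the members with the most reads, and a smaller difference can be seen with more reads. DKC1 was lower in replicate 3 than in the mean of the other replicates, by a log2 ratio of -0.22, and TERF1 was higher by 0.09. Without replicate 3 neither passed, nor did any other member, and 1.33% of genes did. After scaling with TMM factors TERF1 no longer passed.

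Among the members that did not pass, POT1 came nearest (adjusted p = 0.184 by the chi-square test), with replicate 1 lowest. The coefficient of variation between replicates was 10.6% for POT1 and 10.98% for TERF2IP, and counting alone would give 6.30% and 8.19%. For TERT the coefficient of variation between replicates was 13.1%, against 10.3% from counting. For RTEL1 the values were 16.7% and 15.5%, and for TERF2 4.62% and 4.71%. ACD and TINF2, at 4.29% and 2.75%, varied less than the 7.05% and 6.72% that counting alone would give. Differences between replicates in these genes were not detectable at this depth. Replicate 3 differed from the others with the GC content of exons over many genes. Genes within 1 percentage point of the 63.1% of TERT had a median log2 ratio of replicate 3 to the others of 0.25, and TERT had 0.13. For DKC1, at 44.9% GC, like genes had -0.04 against its own -0.22, and for TERF1, at 38.2%, -0.04 against 0.09. The part of GC content in the spread of these members was not tested.

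**Figure D4:**
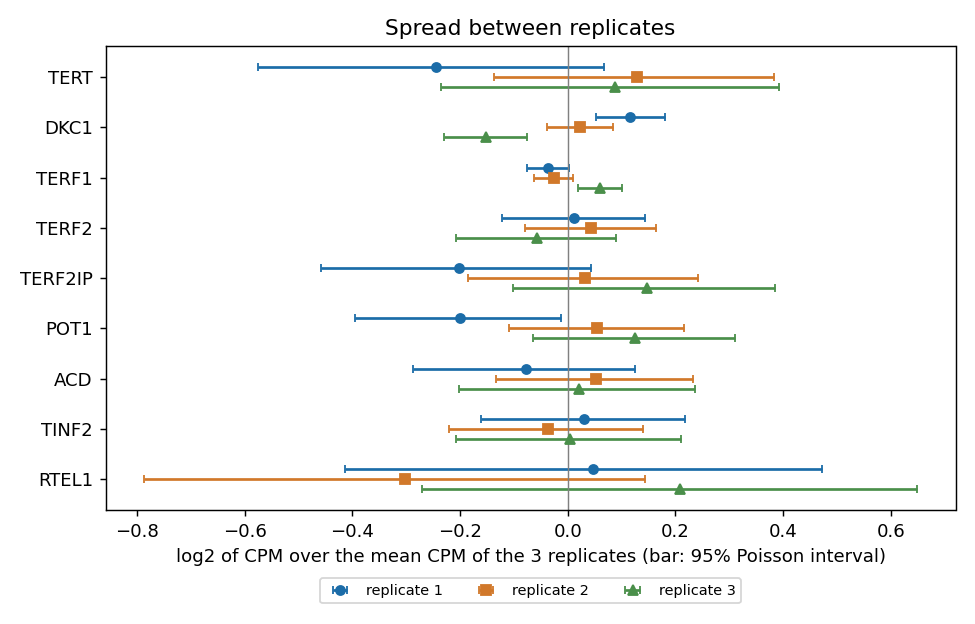
Log2 of each replicate's CPM (library-scaled counts) over the mean of the 3 replicates, for the 9 members with at least 20 reads, with 95% exact Poisson intervals as bars. The intervals of replicate 3 stand apart from those of replicate 1 for DKC1 and TERF1, and the intervals overlap for the other 7 members.

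Of the 14 genes that assemble telomerase and process its RNA, 7 were in the high and 7 in the medium class, with a median of 39.5 TPM. Of the proteins that bind H/ACA RNAs together with dyskerin, NHP2 had 248 ± 10.4, NOP10 151 ± 6.69 and GAR1 73.3 ± 5.75 TPM (SD, n = 3), and NHP2 and NOP10 had the highest means of the 14. NHP2 was 3.30 ± 0.446 and NOP10 2.01 ± 0.201 times as high as DKC1, whereas DKC1 and GAR1 differed by less than their spread, with a ratio of 1.03 ± 0.0905 (SD, n = 3). NAF1, which occupies the place of GAR1 in the immature particle, had 25.4 ± 0.435 TPM (SD, n = 3). WRAP53, whose product TCAB1 brings telomerase to Cajal bodies, had 25.5 ± 0.339 TPM, 4.12 ± 0.541 times the level of TERT (SD, n = 3). The chaperone genes RUVBL1 and RUVBL2 had 75.5 ± 4.15 and 118 ± 2.07 TPM (SD, n = 3). PARN, the exonuclease that trims TERC, had 22.7 ± 1.32 TPM, TENT4B, which adds the tails that PARN removes, 15.8 ± 0.172 TPM, and PINX1, a telomerase inhibitor, 18.5 ± 3.89 TPM (SD, n = 3). SHQ1, TGS1, ZCCHC8 and COIL lay between 17.5 and 73.9 TPM. The lowest of these 14 genes was thus above TERT.

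The CST complex, which ends elongation by telomerase and promotes synthesis of the opposite strand, was low by comparison, with 1 of 3 genes in the medium class and 2 in the low class. CTC1 had 14.2 ± 1.38 TPM and STN1 1.72 ± 0.0497 TPM (SD, n = 3), a ratio of 8.26 ± 0.808 (SD, n = 3). By the longest transcript the ratio was 6.36 ± 0.622 (SD, n = 3). Of the 14571 bp of STN1, 2610 bp are shared on its own strand. TEN1 had 1, 5 and 1 reads, and 974 of its 1283 bp are shared with another gene of its strand, so that its level has the same limit as that of TERC.

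Of 11 partners of shelterin and other telomere maintenance genes, 5 were in the high, 4 in the medium and 1 in the low class, and ZSCAN4 had no read. The tankyrase TNKS2, which releases TRF1 from telomeres, had 131 ± 0.766 TPM, and its paralog TNKS had 34.3 ± 0.142 TPM (SD, n = 3). TERF1 and TNKS2 differed by less than their spread over all exons, with a ratio of 1.01 ± 0.0313, and TERF1 was 3.76 ± 0.116 times as high by the longest transcript (SD, n = 3). RIF1, a regulator of replication timing and of break repair, had 93.2 ± 2.22 TPM, and the helicase genes BLM and WRN had 48.3 ± 1.69 and 31.3 ± 1.73 TPM (SD, n = 3). DCLRE1B, the nuclease Apollo that TRF2 brings to leading-strand ends, had 16.9 ± 1.83 TPM, and SLX4, ZBTB48 and HMBOX1 had between 11.8 and 14.7 TPM. FBXO4, a ubiquitin ligase subunit for TRF1, had 3, 6 and 9 reads.

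ATRX and DAXX, which restrain recombination-based lengthening of telomeres in cells without telomerase, had 32.9 ± 0.911 and 137 ± 13.2 TPM (SD, n = 3) and were in the high class, and SMARCAL1 and FANCM, at 8.45 and 5.55 TPM, in the medium class. The genes of the complex that ties telomeres to the nuclear envelope in meiosis gave a contrast from germ cells. TERB1 had 2, 10 and 8 reads, TERB2 had 4, 4 and 6 reads, and MAJIN had none. Their highest mean, 1.23 ± 0.495 TPM (SD, n = 3) for TERB2, was below that of every shelterin gene, and its range overlapped that of RTEL1. Of 9 genes listed here as regulators of the TERT promoter, without regard to the direction of their effect, 6 were in the high class. MYC and SP1 had 52.9 ± 3.30 and 113 ± 4.68 TPM, and GABPA and GABPB1 had 38.7 ± 0.758 and 41.8 ± 0.125 TPM (SD, n = 3). SP3, MEN1 and MAX had 41.0, 41.6 and 20.9 TPM. MXD1, which competes with MYC for MAX, was low, at 3.63, 2.03 and 3.05 TPM, and WT1 had no read. The part of these regulators in the level of TERT was not tested.

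**Figure D5:**
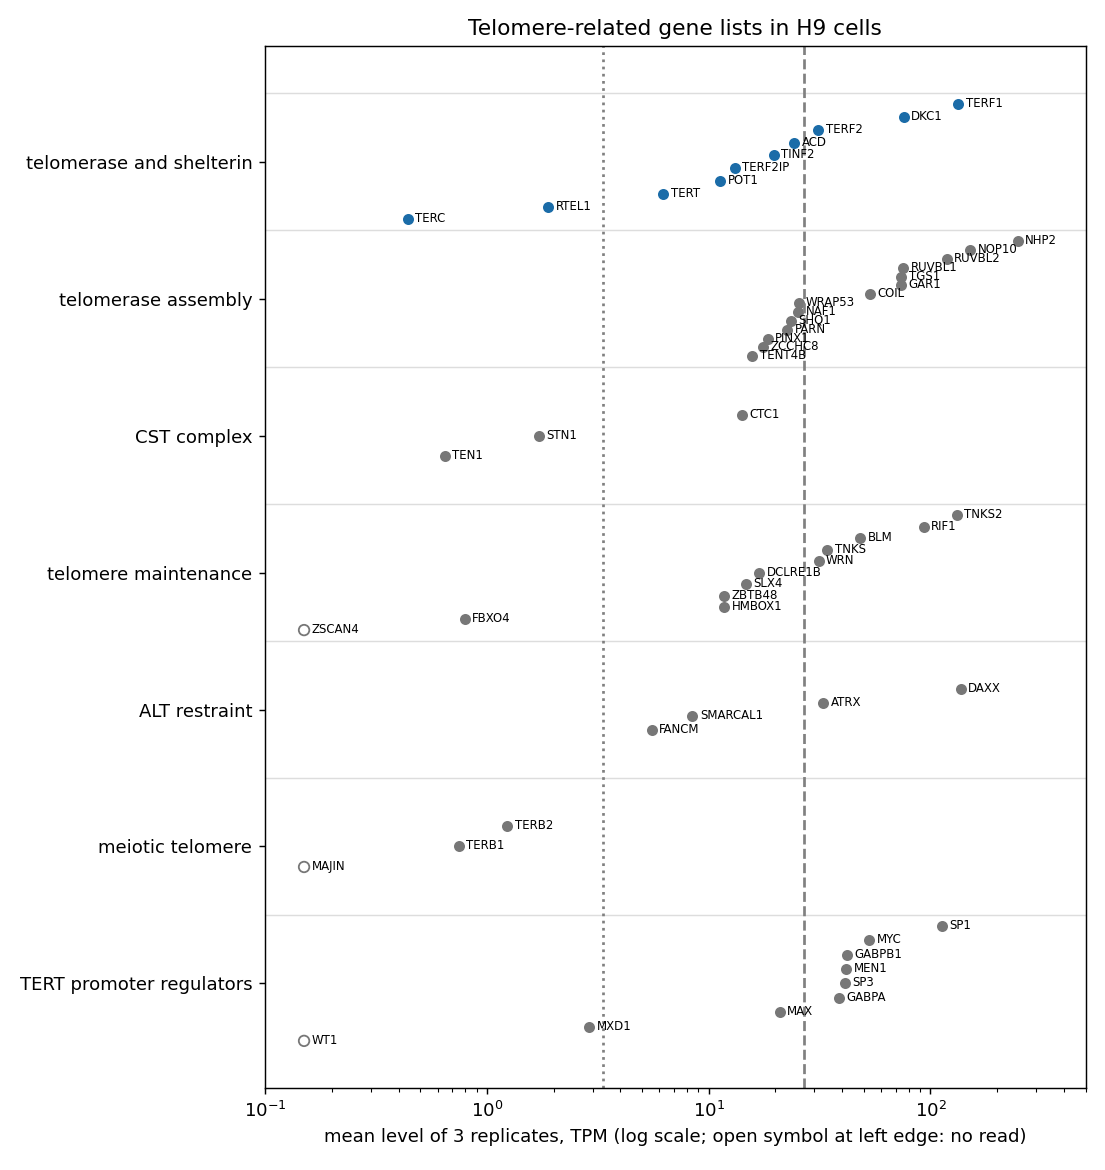
Mean TPM of 3 replicates on a log axis, 1 point per gene, for the members (blue) and for 6 lists of telomere-related genes (grey), with the class limits of 3.35 and 27.0 TPM as dotted and dashed lines and open symbols at the left edge for genes without a read. All 14 telomerase assembly genes lie above TERT, at 6.24 TPM, and the meiotic telomere genes lie at 1.23 TPM or below.

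Some of the members lie near chromosome ends. TERT is 1.25 Mb from the nearest end of its chromosome, DKC1 1.26 Mb and RTEL1 0.748 Mb, so that 3 of the 10 genes are within 1.5 Mb of an end, as are 5.17% of protein-coding genes. The other 7 are 14.6 Mb or more from an end. These 3 were in different classes of expression, DKC1 in the high, TERT in the medium and RTEL1 in the low class, and no test was made of their position.

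Promoter windows from RefSeq (GRCh38.p14, 250 bases before to 50 bases after the start) were found for 7 of the 10 genes, 9 windows in all. RTEL1 and TINF2 had 2 each, and those of TINF2 overlap, so that the 9 windows are not independent. A GC box (GGGCGG on either strand), the site of SP1 and related factors, was present in 8 of the 9 windows and in 45.0% of 35116 windows of all genes. None held TATAAA, which 11.5% of all windows hold, 2 held CCAAT (34.6% of all windows), both of TINF2 and overlapping each other, and 1, that of TERT, held the E-box CACGTG (7.26% of all windows). GC content was between 60.3% and 77.3%, against a median of 58.7% over all windows, and was highest for TERT. The windows of DKC1, the highest of the 7 genes with a window, and POT1, the lowest shelterin gene over all exons, are shown with their GC boxes in capitals. They hold 4 and 2 of them, counting overlapping matches, and the mean levels were 75.7 TPM for DKC1 and 11.3 TPM for POT1. The window of TERT held 3 at 6.24 TPM, that of ACD 2 at 24.3 TPM and that of TERF2IP 1 at 13.1 TPM. Those of TINF2 held 2 each at 19.7 TPM, and those of RTEL1 held 0 and 2 at 1.90 TPM. The relation of GC boxes to level was not tested. The window of DKC1 is at chrX:154762614-154762913 on the plus strand and that of POT1 at chr7:124929776-124930075 on the minus strand.
DKC1: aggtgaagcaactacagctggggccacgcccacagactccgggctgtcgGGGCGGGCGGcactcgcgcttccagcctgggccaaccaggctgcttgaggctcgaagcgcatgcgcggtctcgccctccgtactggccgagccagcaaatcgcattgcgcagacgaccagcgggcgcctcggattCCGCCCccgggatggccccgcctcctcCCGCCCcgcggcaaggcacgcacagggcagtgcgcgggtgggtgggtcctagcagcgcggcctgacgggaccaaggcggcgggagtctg
POT1: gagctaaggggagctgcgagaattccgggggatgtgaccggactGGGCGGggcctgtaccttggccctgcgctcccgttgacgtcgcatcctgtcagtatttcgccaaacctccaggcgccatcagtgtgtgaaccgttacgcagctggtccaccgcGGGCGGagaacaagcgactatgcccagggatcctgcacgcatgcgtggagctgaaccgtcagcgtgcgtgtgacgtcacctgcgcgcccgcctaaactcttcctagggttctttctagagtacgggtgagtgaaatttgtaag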

How the data were processed

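RNA was sequenced from 3 replicates of 1 condition. The authors trimmed reads with Trim Galore (0.4.4), aligned them to GRCh38 with TopHat2 (2.1.1) and deposited raw counts of reads per gene, with no normalization. Their own levels came from Cufflinks (2.2.1) and were not used here. Which tool and annotation gave the counts, and whether strand was used, is not given in the sources used here. The 10 members and the gene lists were chosen with earlier results of these data known.

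Identifiers were joined to GENCODE release 44, of the same build, which matched 56948 of 58051. A symbol with several identifiers was given the one with the longest exons, which applied to PINX1. TPM was computed from the deposited counts and exon unions, and no filter on low counts was applied to levels. The named genes are the members, the lists, genes that overlap exons of a member, and pseudogenes named after one. The chi-square test used 2 degrees of freedom over all genes with at least 20 reads and was tested on simulated data. edgeR's quasi-likelihood test needs groups and was not run. Exon GC content, chromosome lengths and TERC were read from GRCh38. R 4.3.3 with edgeR 4.0.16 (TMM) and DESeq2 1.42.0 (size factors), and Python 3.11.15 with numpy 2.4.6, pandas 2.3.3, scipy 1.17.1 and matplotlib 3.10.9 were used. Alternatives were other gene lengths, scalings, units, averages, class limits, count minimums, thinned counts and leaving out each replicate.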

Additional observations from a re-analysis of the deposited data

How the results depend on the processing

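The ratio of the highest to the lowest shelterin gene, 11.9, was 20.6 with lengths of the longest transcript, by which TINF2 was lowest, and 36.3 with CPM, which does not divide by length and where TERF2IP was lowest. The ratio of DKC1 to TERT, 12.3, was 19.9 and 19.2 under the same settings. Other alternatives moved both by less than their SD. Without replicate 1, 2 or 3 they lay between 11.2 and 12.3 and between 10.7 and 13.4.

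The number of overlapping neighbours in the order of levels, 1, was 3 with the longest transcript, 2 with bases unshared on the same strand or on either strand, 4 with counts thinned to 10% and 0 to 1 with a replicate left out, 0 without replicate 1. The number of members in the high class, 3, was 7 when the quantiles were taken over genes of every biotype and 2 with a threshold of 1 TPM. ACD was below TINF2 with bases unshared on either strand, at 12.0 against 13.2 TPM. The members that varied between libraries beyond counting error, 2, fell to 1 with TMM factors and 1 with DESeq2 size factors, DKC1 in both, and were 0 to 2 with a replicate left out, 0 without replicate 3. For these the cause was not tested, except that fewer reads widen the ranges when counts are thinned.

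The level of 9 of 10 members moved by more than its SD with the longest transcript (6 higher and 3 lower), of 10 with bases unshared on the same strand (2 higher and 8 lower), of 9 with bases unshared on either strand (1 higher and 8 lower) and of 2 with mitochondrial genes left out. With each of these lengths, TPM was rescaled to the same sum. With the longest transcript, TERT, ACD and TINF2 thus fell to 5.26, 23.1 and 18.1 TPM, although their own length became shorter. With bases unshared on the same strand or on either strand, all reads of a gene were kept and TPM was again rescaled. TERF1, which shares no base and keeps its length, thus fell from 133 to 99.9 and 64.8 TPM under these 2 settings. TMM and DESeq2 factors moved none. No paired analysis was possible because all 3 libraries belong to 1 condition. TERC and TEN1 had 2 and 7 reads in all, so that their levels rest on few reads.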
